A study of Homo sapiens with 12 samples.

Results

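MYC, the G1 cyclins CCND1, CCND2, CCND3, CCNE1 and CCNE2, the transcription factor E2F1 and the inhibitor CDKN1B form the core of the decision to enter S phase, and their RNA and ribosome footprints are described here in arginine-starved and arginine-fed RKO cells. The 8 genes were chosen by a list of 12 Ensembl transcript identifiers, with alternatives for some genes. Of these identifiers 8 were present, 1 for each gene (ENST00000621592 for MYC, ENST00000227507 for CCND1, ENST00000261254 for CCND2, ENST00000372991 for CCND3, ENST00000262643 for CCNE1, ENST00000308108 for CCNE2, ENST00000343380 for E2F1 and ENST00000228872 for CDKN1B), among the 19849 transcripts of the footprint table and the 19686 of the RNA table. The other 4 were alternatives for MYC and CCNE2. RKO is an established colon cancer line, labelled wild type. Starved cells had 12.5 uM arginine and fed cells 400 uM for 24 hours, both in arginine-free DMEM with dialysed serum to which the arginine was added back. Each of the 4 groups, starved and fed cells by RNA-seq and by ribosome profiling, held 3 libraries. RNA-seq counts fragments of the RNA, here those assigned to the listed transcript of each gene. Ribosome profiling counts the short fragments that ribosomes shield from nuclease, called footprints.

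D-type cyclins are made in G1 in response to growth signals and activate CDK4 and CDK6. E-type cyclins activate CDK2 later in G1, and both kinds of kinase phosphorylate the retinoblastoma protein, which then releases E2F factors. E2F factors drive genes of DNA replication, the E cyclins and E2F1 itself, while p27, the product of CDKN1B, holds cyclin E and CDK2 inactive. MYC is a transcription factor that promotes growth and cell cycle entry, and its RNA and protein are both short-lived.

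The libraries held 4670881 to 7967215 counts for RNA and 2063952 to 4364383 for footprints. Levels are CPM, counts relative to the library total, scaled with TMM factors, which set the bulk of the transcripts equal between libraries of 1 assay, so every change is relative to the other transcripts. The tables pair no identifier with a gene name beyond the list used here, so markers of the cell line and other genes of the pathway were not checked here, and with gene lengths not used, levels are not compared between genes. In a bulk lysate a changed share of cells in 1 cell cycle phase and a changed level per cell cannot be told apart. The labels do not say that the libraries came from separate cultures, so p-values measure the spread between libraries, which may be technical.

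MYC RNA rose most among the 8 genes, and CCNE2 and E2F1 RNA fell more than 3-fold. In the RNA comparison 6 of the 8 genes were called, 3 higher (MYC, CCND2 and CDKN1B) and 3 lower (CCND3, CCNE2 and E2F1) in starved cells. Called here means past a Benjamini-Hochberg adjusted p of 0.05 in edgeR's quasi-likelihood test over all transcripts. Over all 11572 transcripts tested in RNA, 67.9% were called, 33.8% higher and 34.1% lower, so the share of members called was near the background. The median absolute log2 fold change, starved over fed, was 0.79 over the 8 genes and 0.42 over all transcripts tested in RNA. In footprints 5 of the 8 were called, MYC and CCND2 higher and CCND3, CCNE1 and CCNE2 lower, beside 39.8% of 13457 transcripts, 18.9% higher and 20.9% lower. Here the median absolute log2 fold change was 0.62 over the 8 genes and 0.44 over all transcripts. Translational efficiency, which sets the footprints of a gene against its RNA, was called for CCNE2 and E2F1, both higher, beside 22.9% of 11027 transcripts tested for it, 11.1% higher and 11.8% lower. With 8 genes no share is called particular to them. Below, starved and fed libraries are said not to overlap for some genes. The share of all transcripts without such overlap was not taken, so this is not read as particular to the genes.

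**Figure D1:**
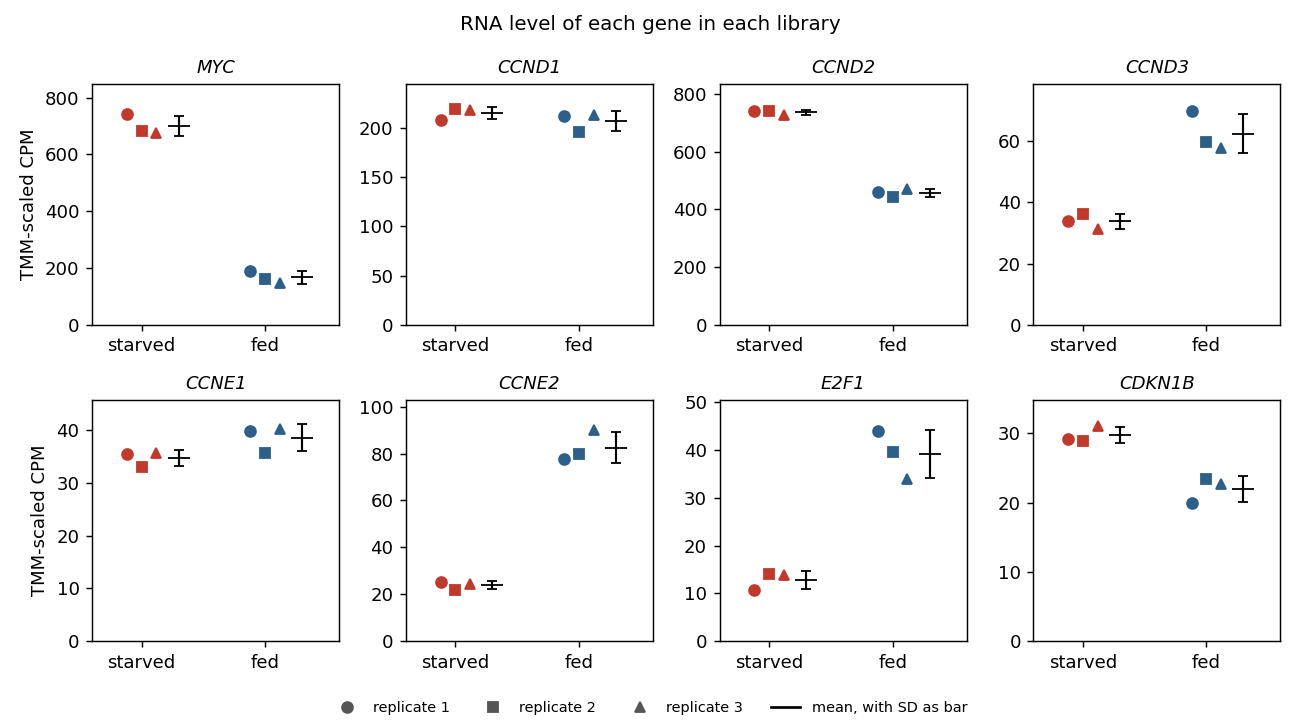
RNA level (TMM-scaled CPM, linear axes that start at 0) of the 8 genes in starved and fed libraries, with each replicate as a symbol and the mean with its SD (n = 3) beside it. Starved MYC libraries lie between 676 and 742 CPM, above all fed libraries, while starved and fed libraries of CCND1 and CCNE1 overlap.

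MYC RNA stood at 742, 681 and 676 CPM in the 3 starved libraries, against 191, 163 and 147 CPM in the fed libraries. Every starved library was above every fed one, and the means were 699.7 ± 36.5 CPM in starved and 167 ± 22.4 CPM in fed cells (SD, n = 3 each). The rise was 4.19-fold (log2 fold change 2.07, SE 0.08, 95% interval 1.91 to 2.22, edgeR adjusted p = 1.02e-33), larger than that of 99.0% of transcripts tested in RNA. The counts behind it were 13674 in starved and 3427 in fed libraries.

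MYC footprints rose as well. They were 942, 1197 and 1189.7 CPM in starved and 377, 311 and 331 CPM in fed libraries, again without overlap. Footprints rose 3.26-fold (log2 fold change 1.71, SE 0.13, 95% interval 1.42 to 1.99, edgeR adjusted p = 1.59e-06), which exceeded that of 98.8% of transcripts tested in footprints. Ribosomes per MYC transcript did not pass the test of a change. The efficiency difference was -0.28 on the log2 scale (SE 0.15, 95% interval -0.60 to 0.04, edgeR adjusted p = 0.199), and -0.06 with the abundance trend removed (edgeR adjusted p = 0.837). The ratio of footprint CPM to RNA CPM was taken between libraries of the same treatment and number. The labels do not say that these numbers pair the libraries, so the matching is arbitrary. This ratio is given for MYC in the order of the numbers. It was 1.27, 1.76 and 1.76 in starved and 1.98, 1.91 and 2.26 in fed cells. The ratio of the means lay at percentile 76.6 of all transcripts in starved and 84.9 in fed cells, so MYC carried more footprints for its RNA than the median transcript in both.

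**Figure D2:**
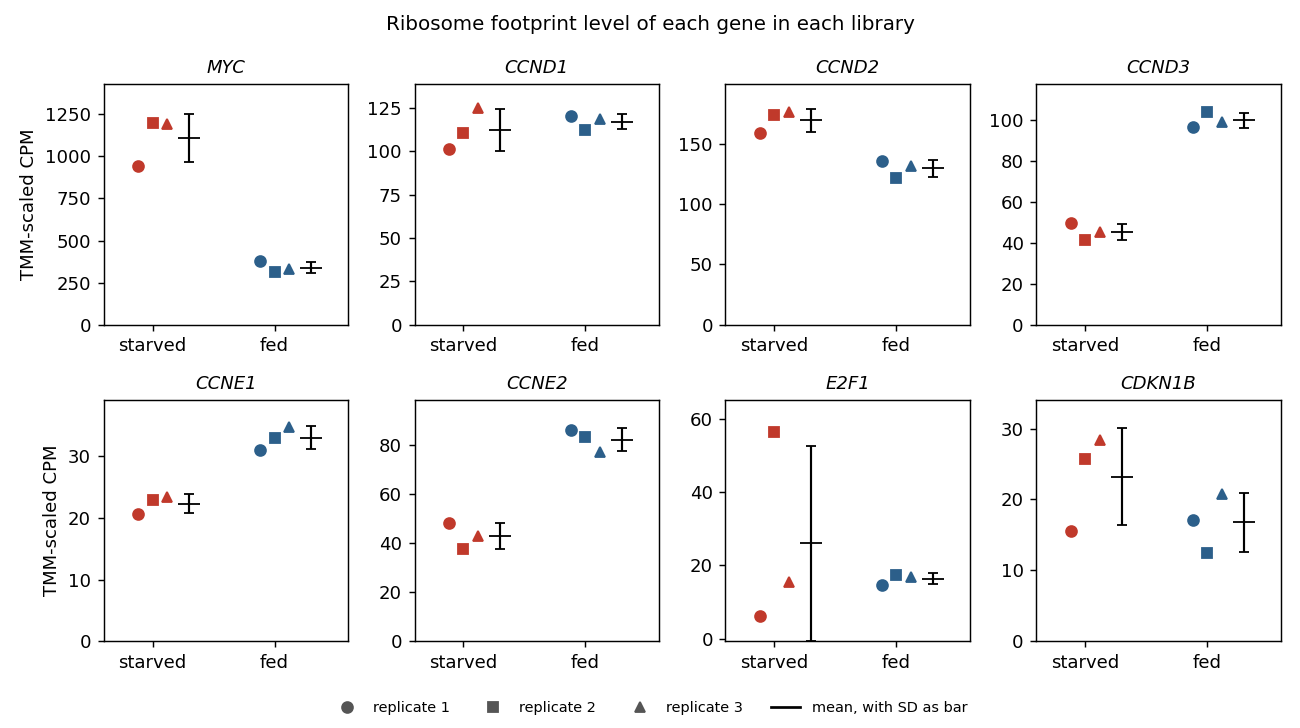
Ribosome footprint level (TMM-scaled CPM, linear axes; the SD bar of starved E2F1 reaches just below 0) of the 8 genes in starved and fed libraries, with each replicate as a symbol and the mean with its SD (n = 3). MYC and CCND2 are higher and CCND3, CCNE1 and CCNE2 lower in every starved library, and starved E2F1 replicate 2 stands at 56.3 CPM beside 6.29 and 15.4 CPM in the other starved libraries.

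Among the D-type cyclins CCND2 RNA rose, CCND3 RNA fell and CCND1 RNA, the cyclin D1 message, did not pass the test. CCND1 RNA had 208, 219 and 218 CPM in starved against 212, 195 and 213 CPM in fed libraries, which overlap. Its log2 fold change was 0.05 in RNA (95% interval -0.08 to 0.19, edgeR adjusted p = 0.512) and -0.06 in footprints (95% interval -0.33 to 0.21, adjusted p = 0.735). CCND1 footprints were 102, 111 and 125 CPM in starved and 121, 113 and 119 CPM in fed libraries. As ratios of starved over fed, these intervals run from 0.943 to 1.14 in RNA and from 0.794 to 1.16 in footprints. The sign of the CCND1 values turned with the abundance trend removed, to -0.129 in RNA and 0.0405 in footprints. CCND1 efficiency did not pass (log2 fold change -0.03, 95% interval -0.28 to 0.23, edgeR adjusted p = 0.905).

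CCND2 RNA, which encodes cyclin D2, measured 743, 741 and 727 CPM in starved and 461, 443 and 470.5 CPM in fed libraries. All starved libraries were higher, and the SD over the mean was 1.16% in starved and 3.01% in fed libraries. The rise was 1.61-fold (log2 fold change 0.69, SE 0.07, edgeR adjusted p = 2.88e-13). CCND2 footprints were 159, 174 and 176 CPM in starved and 135, 122 and 131 CPM in fed libraries, again without overlap. They rose 1.31-fold (log2 fold change 0.39, SE 0.12, edgeR adjusted p = 0.021), a call close to the threshold. It was lost, with adjusted p between 0.0506 and 0.115, when starved footprint replicate 2 or 3 or any of the 3 fed footprint libraries was left out, and adjusted p was 0.0145 without starved replicate 1. CCND2 efficiency did not pass (log2 fold change -0.22, 95% interval -0.46 to 0.03, edgeR adjusted p = 0.189), and was -0.04 with the abundance trend removed (edgeR adjusted p = 0.860). CCND2 carried few footprints for its RNA: the ratio of its mean footprint to its mean RNA level was 0.230 in starved and 0.283 in fed cells, at percentiles 4.05 and 5.83, against medians over all transcripts of 0.869 in starved and 0.929 in fed cells. Whether footprints outside the coding sequence were counted is not given in the sources used here, so such ratios between genes may depend on the regions counted.

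CCND3 RNA, which encodes cyclin D3, stood at 34.0, 36.2 and 31.4 CPM in starved and 69.8, 59.8 and 57.8 CPM in fed libraries. All starved libraries were lower. The fall was 1.85-fold (log2 fold change -0.89, SE 0.09, edgeR adjusted p = 5.72e-13). CCND3 footprints were 49.5, 41.5 and 45.2 CPM in starved and 96.8, 104 and 99.0 CPM in fed libraries, a 2.20-fold fall (log2 fold change -1.14, SE 0.13, edgeR adjusted p = 3.32e-05). Starved and fed footprint libraries did not overlap. The efficiency difference of -0.17 (95% interval -0.48 to 0.15, edgeR adjusted p = 0.462) did not pass.

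Ratios of cyclins within 1 library do not depend on the scaling between libraries, and the plot of cyclin ratios shows them. The RNA ratio of CCND2 over CCND1 was 3.57, 3.38 and 3.33 in starved and 2.17, 2.27 and 2.20 in fed libraries, 1.55-fold higher in starved cells. In footprints the same ratio was 1.56, 1.57 and 1.41 in starved and 1.12, 1.08 and 1.11 in fed libraries, 1.37-fold higher. Relative to CCND1, both assays therefore had more counts on CCND2 in every starved library. How often ratios of other transcripts separate the groups in this way was not taken. The RNA ratio of CCND3 over CCND1 averaged 0.158 ± 0.0120 in starved and 0.302 ± 0.0291 in fed libraries, and the footprint ratio 0.408 ± 0.0692 in starved and 0.854 ± 0.0632 in fed libraries (SD, n = 3 each). Each of these 4 ratios separated starved from fed libraries without overlap, which gave p = 0.1 in an exact two-sided permutation test, the smallest that 3 against 3 libraries allow (0.12 after Benjamini-Hochberg adjustment over the 6 ratios tested).

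**Figure D3:**
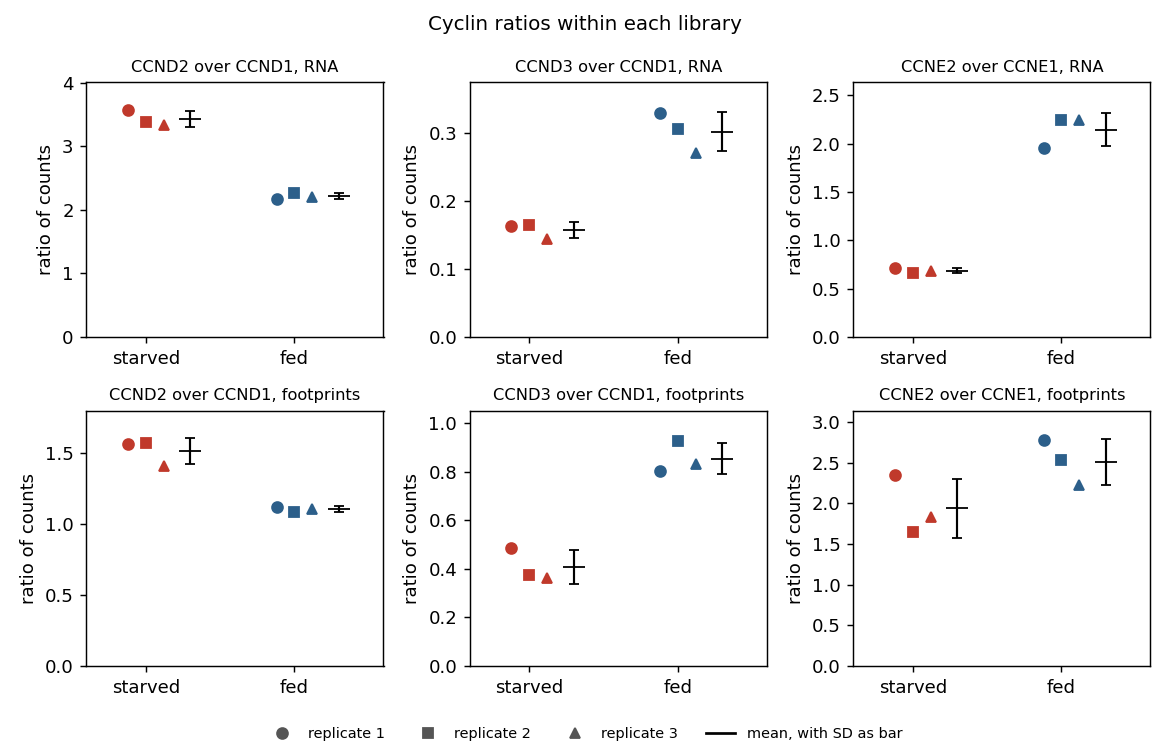
Ratios of counts of cyclin genes within each library (linear axes that start at 0), RNA in the upper and footprints in the lower row, starved left of fed, with the mean and SD (n = 3). The ratio of CCNE2 over CCNE1 is about 0.688 in starved and 2.15 in fed cells in RNA, while in footprints starved and fed libraries overlap.

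Of the E-type cyclins, CCNE2 RNA fell 3.45-fold, while CCNE1 RNA did not pass the test. CCNE2 RNA, which encodes cyclin E2, was at 25.5, 21.9 and 24.2 CPM in starved against 77.9, 79.7 and 90.0 CPM in fed libraries. Every starved library was below every fed one. The log2 fold change was -1.79 (SE 0.09, 95% interval -1.97 to -1.60, edgeR adjusted p = 3.82e-26), and 2.26% of transcripts tested in RNA had a lower value. CCNE2 footprints fell less, with 48.2, 37.7 and 42.8 CPM in starved and 86.3, 83.5 and 77.3 CPM in fed libraries, a 1.93-fold fall (log2 fold change -0.95, SE 0.14, edgeR adjusted p = 0.000219). The difference between the assays passed the test: CCNE2 efficiency rose 1.89-fold (log2 fold change 0.92, SE 0.16, 95% interval 0.59 to 1.24, edgeR adjusted p = 0.000325). The ratio of footprint to RNA CPM was 1.90, 1.72 and 1.77 in starved and 1.11, 1.05 and 0.858 in fed cells. Over all 9 matchings of a footprint with an RNA library within a treatment, it was 1.48 to 2.20 in starved and 0.858 to 1.11 in fed cells, so the groups did not overlap. This was not particular to CCNE2. CCND2 (0.213 to 0.242 in starved, 0.259 to 0.306 in fed cells) did not overlap either. Nor did CCNE1 (0.578 to 0.711 in starved, 0.774 to 0.978 in fed cells), and neither gene was called in efficiency. The share over all transcripts was not taken. The ratio of CCNE2 means stood at percentile 81.0 of all transcripts in starved and 53.7 in fed cells.

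CCNE1 RNA, which encodes cyclin E1, had 35.5, 32.9 and 35.6 CPM in starved and 39.8, 35.6 and 40.1 CPM in fed libraries, with overlap. The log2 fold change was -0.16 (95% interval -0.35 to 0.04, edgeR adjusted p = 0.145), and it was called at -0.27 (adjusted p = 0.0121) when library totals replaced TMM factors. CCNE1 footprints separated the groups, with 20.6, 22.9 and 23.4 CPM in starved and 31.1, 33.0 and 34.8 CPM in fed libraries. They fell 1.46-fold (log2 fold change -0.55, SE 0.15, edgeR adjusted p = 0.0101), on 202 counts in starved and 274 in fed libraries, and with the Wald test of DESeq2 the adjusted p was 0.0517. CCNE1 efficiency did not pass (log2 fold change -0.30, 95% interval -0.63 to 0.03, edgeR adjusted p = 0.178). A called change of footprints beside an uncalled change of RNA does not show that the assays differ.

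The balance of CCNE2 to CCNE1 counts separated starved from fed libraries in RNA and not in footprints; the difference between the assays was not tested as a ratio. The RNA ratio was 0.718, 0.665 and 0.681 in starved and 1.95, 2.24 and 2.24 in fed libraries (exact two-sided permutation test, p = 0.1, adjusted 0.12 over 6 ratios). The footprint ratio was 2.35, 1.65 and 1.83 in starved and 2.78, 2.53 and 2.22 in fed libraries, which overlap (exact two-sided permutation test, p = 0.2, adjusted 0.2).

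E2F1 is the S-phase transcription factor of the set, and its promoter is shown because it is known to be bound by E2F factors, the products of its own family. RefSeq promoter windows on GRCh38.p14 were matched by symbol for CCND3, CCNE1, E2F1 and CDKN1B, 6 windows in all. Windows of the set on the chromosome that carries MYC and CCNE2 were left out beforehand. For CCND1 and CCND2 no window was matched. No window of MYC, CCND1, CCND2 or CCNE2 is described here. The 250 bases before each start were searched on both strands for the E2F words TTTCCCGC, TTTGGCGC, TTTCGCGC and TTTGCCGC and for the E-box CACGTG bound by MYC and its partner MAX. No word is part of another. The E2F1 window at chr20:33686386-33686635, minus strand, printed 5′ to 3′ with the matched E2F words in capitals, was
E2F1 promoter: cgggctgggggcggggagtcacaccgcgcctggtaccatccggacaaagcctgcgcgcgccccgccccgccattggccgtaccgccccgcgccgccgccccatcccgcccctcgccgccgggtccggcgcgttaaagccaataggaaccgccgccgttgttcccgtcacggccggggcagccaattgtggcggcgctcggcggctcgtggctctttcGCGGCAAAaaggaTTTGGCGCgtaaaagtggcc
The window held 2 E2F words, 1 on each strand, close to the start, and 0 E-boxes. Of 35116 RefSeq windows of this length, 2.79% held an E2F word and 6.34% an E-box, and the other 5 windows, those of CCND3, CCNE1 and CDKN1B, held neither. A match describes the letters in the window and no more.

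E2F1 RNA fell to 10.7, 14.2 and 13.8 CPM in starved libraries, against 43.9, 39.7 and 33.9 CPM in fed libraries. No starved library overlapped a fed one. The fall was 3.05-fold (log2 fold change -1.61, SE 0.12, 95% interval -1.86 to -1.36, edgeR adjusted p = 3.23e-18), and 3.18% of transcripts tested in RNA had a lower value. E2F1 footprints were 6.29, 56.3 and 15.4 CPM in starved and 14.6, 17.5 and 16.9 CPM in fed libraries. The 3 starved libraries span the fed ones on both sides, since replicate 2 held 160 counts where replicates 1 and 3 held 15 and 58. The SD over the mean of the starved libraries was 102%, beside a counting error of 11.3% for a library with their mean count. The footprint log2 fold change of 0.70 did not pass (95% interval -0.48 to 1.87, edgeR adjusted p = 0.323), and without starved replicate 2 it was -0.48 (adjusted p = 0.247). Of 11710 transcripts with a mean of at least 20 footprint counts in starved libraries, 3 including E2F1 were 3-fold or more higher in replicate 2 than in both other starved libraries. The same count was 3 for starved replicate 1 and 0 for starved replicate 3. This check was added after the E2F1 values were seen, so it is a description and no test. The counts per transcript do not show where on E2F1 those footprints lie.

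E2F1 efficiency was called higher (log2 fold change 2.39, SE 0.55, 95% interval 1.25 to 3.53, edgeR adjusted p = 0.00369). The size rests on that 1 library: without starved footprint replicate 2 the value was 1.25 (SE 0.33), and it passed the test there too (edgeR adjusted p = 0.0092). The ratio of footprint to RNA CPM was 0.587, 3.98 and 1.12 in starved and 0.333, 0.441 and 0.499 in fed cells. Over all 9 matchings within a treatment it was 0.444 to 5.25 in starved and 0.333 to 0.517 in fed cells, so the groups overlapped. CCNE2 and E2F1 were both called lower in RNA and higher in efficiency, a measure that RNA enters with the opposite sign. This combination was called for 810 of the 11027 transcripts tested for efficiency (7.35%). It made up 21.2% of the 3823 transcripts with RNA called lower, which also include CCND3.

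CDKN1B, which encodes the CDK inhibitor p27, rose modestly in RNA. Its RNA measured 29.2, 29.0 and 31.1 CPM in starved and 19.9, 23.4 and 22.6 CPM in fed libraries, with all starved libraries higher. The rise was 1.36-fold (log2 fold change 0.45, SE 0.11, 95% interval 0.22 to 0.67, edgeR adjusted p = 0.000428). CDKN1B footprints were few, 217 counts in starved and 143 in fed libraries, and varied widely, with 15.5, 25.7 and 28.5 CPM in starved and 17.1, 12.5 and 20.8 CPM in fed libraries. The groups overlap, and the log2 fold change of 0.49 did not pass (95% interval -0.03 to 1.01, edgeR adjusted p = 0.124). Leaving out 1 footprint library at a time gave 0.30 to 0.66 (edgeR adjusted p = 0.0235 to 0.394). It passed without starved replicate 1, and was lowest, at 0.30 and 0.31, without starved replicate 3 and without fed replicate 2. CDKN1B efficiency did not pass (log2 fold change 0.13, 95% interval -0.37 to 0.63, edgeR adjusted p = 0.735).

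**Figure D4:**
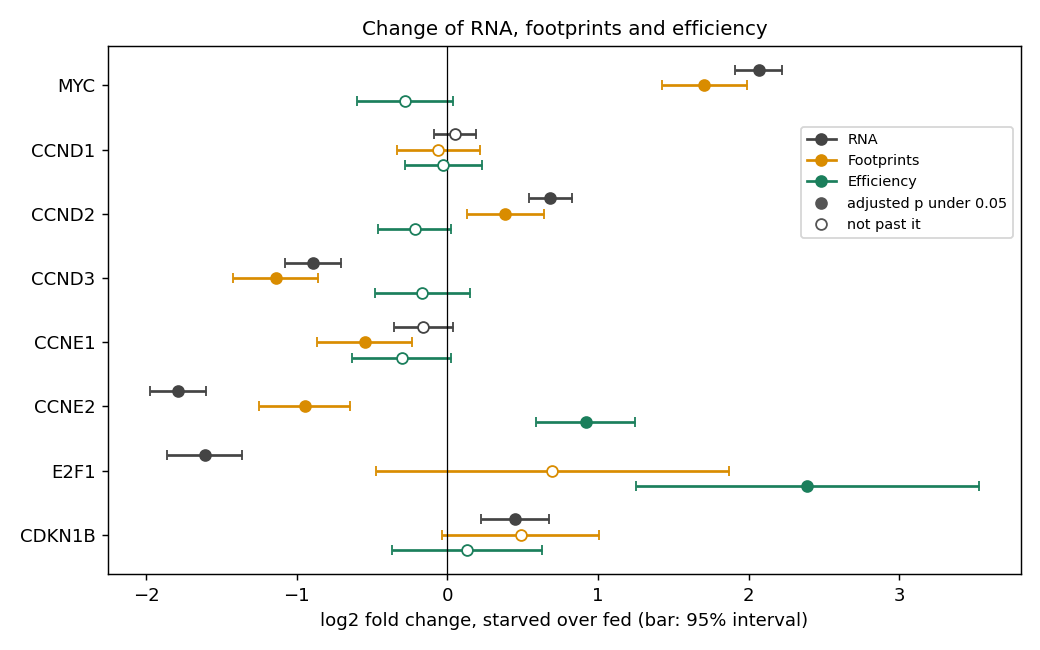
Log2 fold changes (starved over fed) in RNA, footprints and efficiency for each gene, with 95% intervals; filled points passed an edgeR adjusted p of 0.05 and open points did not. MYC is at 2.07 in RNA and 1.71 in footprints, and the efficiency points of CCNE2 (0.92) and E2F1 (2.39) are filled.

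Set side by side, the RNA and footprint log2 fold changes had the same sign for MYC, CCND2, CCND3, CCNE1, CCNE2 and CDKN1B. CCND1 was near 0 in both, and E2F1 was -1.61 in RNA and 0.70 in footprints, where it did not pass and was -0.48 without starved footprint replicate 2. In the plot of footprint against RNA changes MYC lies in the upper right, with other transcripts further out. Of the set, CCND1 and CDKN1B lie closest to the line of equal change, and CCNE2 and E2F1 lie furthest above it.

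**Figure D5:**
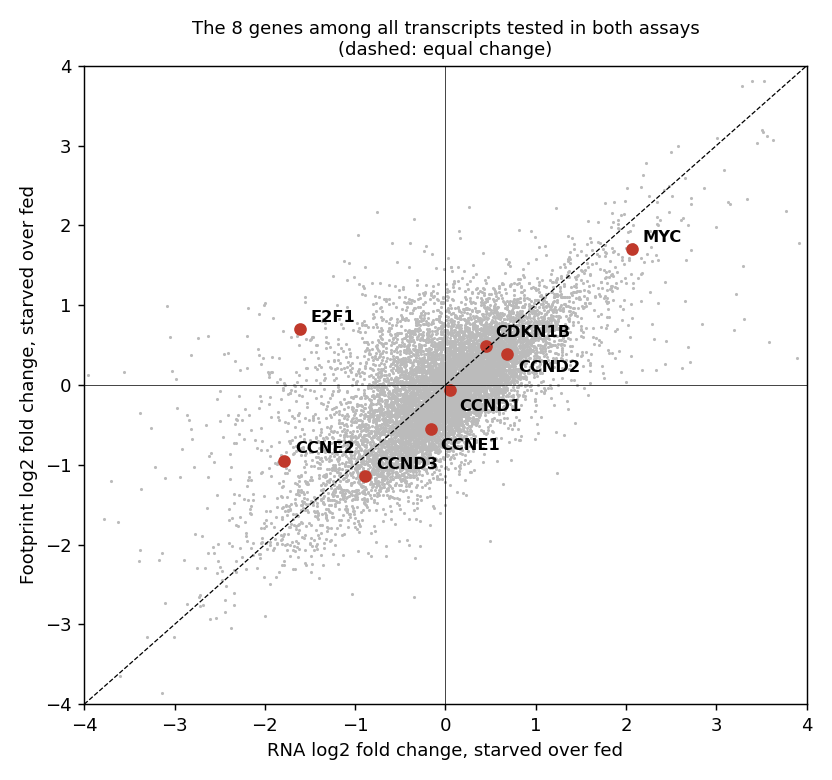
Footprint against RNA log2 fold change (starved over fed) for the 11027 transcripts tested in both assays (grey; 29 lie beyond the axes, which end at 4 in each direction), with the 8 genes in red and a dashed line of equal change. MYC lies at 2.07 and 1.71, and E2F1 at -1.61 and 0.70.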

How the data were processed

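The deposited files hold raw counts, 1 table for RNA and 1 for footprints, with a row per Ensembl transcript; the authors applied no normalization to them. Per the labels' protocols, RNA libraries used a TruSeq kit, and RiboCop depleted ribosomal RNA. The build GRCh38.p13 and the tools STAR, cutadapt, DESeq2 and UMI-tools are named, per the submitters' processing notes. Their roles and versions, the counter, the counted regions and the treatment of multi-mapping or isoform-shared reads, any of which could change a count, are not given in the sources used.

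Counts were tested in edgeR 4.0.16 (R 4.3.3) with the two-sided quasi-likelihood F test after TMM and filterByExpr, adjusted by Benjamini-Hochberg over all transcripts tested, threshold 0.05. Each assay was fitted with treatment alone. Efficiency was the assay by treatment interaction over all 12 libraries, with TMM within each assay. All 8 genes passed the filter in both assays. Standard errors come from the F statistic. Every gene in the list is described. Fits were tested on simulated data, with the same spread for all transcripts of an assay and, for efficiency, no change in RNA. That efficiency setting does not cover genes whose RNA fell, such as CCNE2 and E2F1. Members and lists were chosen with earlier results of these data known, and cyclin ratios and the check of single high libraries were added after values were seen. Of 19849 identifiers 0 matched the gene tables used here, so gene names come from the list that defined the set, and planned pathway lists were not used. Replicate pairs differed beyond sampling noise (chi-square per degree of freedom 2.07 to 7.73). Alternatives were DESeq2 1.42.0 size factors and Wald test, library totals, an abundance trend removed by loess, no filter, replicate blocks and each library left out.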

Additional observations from a re-analysis of the deposited data

Results flagged for a closer look

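The change of CCNE2 differed between the assays: its log2 fold change, starved over fed, was 0.92 higher in footprints than in RNA (edgeR interaction test, adjusted p = 0.000325). Its ratios did not overlap over all 9 matchings of libraries within a treatment, as was also so for CCND2 and CCNE1, which were not called. The change of E2F1 differed as well, by 2.39 (edgeR adjusted p = 0.00369, with ratios that overlapped over all 9 matchings), and by 1.25 without starved footprint replicate 2. Both values are the efficiency tests reported above and add no separate support. With 3 libraries in each group, no test for single outlying libraries was made.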

How the results depend on the processing

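The counts of called transcripts stayed within 1.5 times the reported ones under every alternative: 7038 to 8012 in RNA, 4157 to 5457 in footprints and 1915 to 2706 in efficiency, and 7324 to 7680, 4157 to 5069 and 1915 to 2540 with single libraries left out. Library totals in place of TMM factors moved the median RNA log2 fold change of all transcripts to -0.12 from -0.01 and the RNA calls to 3192 higher and 4675 lower, beside 3911 and 3951. In efficiency they gave 1472 higher and 870 lower, beside 1227 and 1296. Of 344 values of the 8 genes under alternatives, 323 kept direction and call, 8 lost the call, 2 gained it and 11 changed sign. Of the 8 lost calls 7 were CCND2 footprints, which also lost it with no filter (adjusted p = 0.0703), and 1 was CCNE1 footprints. The sign changes were all of uncalled values. CCND1 turned to -0.0602 in RNA and 0.0486 in efficiency with library totals, and to -0.129 in RNA, 0.0405 in footprints and 0.185 in efficiency with the abundance trend removed. With single libraries left out CCND1 efficiency ranged from -0.0982 to 0.0213, CDKN1B efficiency from -0.0336 to 0.309 and E2F1 footprints from -0.48 to 1.08. MYC, CCND3 and CCNE2 kept their calls in RNA and footprints, and CCNE2 and E2F1 theirs in efficiency, under every alternative run. The labels do not say whether replicate numbers pair the libraries. Deviations of same-numbered starved and fed libraries correlated at -0.01 to 0.10 in RNA and -0.21 to -0.03 in footprints. Those of same-numbered RNA and footprint libraries correlated at -0.01 to 0.13 in starved and -0.02 to 0.02 in fed cells. Differently numbered libraries gave -0.11 to 0.13 over these comparisons. With 3 libraries in each group such values cannot exclude a pairing. With a replicate block 7957 transcripts were called in RNA, 4655 in footprints and 2128 in efficiency (2493 with a block for RNA and footprint libraries of the same treatment and number), and CCND2 footprints had adjusted p = 0.0631. The lowest count of a member in a footprint library was 15.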

Other observations

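As a description with no test, 2 other transcripts were looked up for their likeness to MYC, the gene with the largest footprint change of the 8. ENST00000369923 and ENST00000497571 had the highest Pearson correlation with MYC of log2 CPM centred within each assay, 0.997 and 0.995 over the 12 libraries. They were sought among 7109 transcripts for which the log2 of the mean CPM reached 4 in RNA and in footprints. The points fall into starved and fed clusters in each assay, so these values mainly describe a rise in starved cells in both assays. Their log2 fold changes were 2.38 and 2.72 in RNA and 2.07 and 2.27 in footprints, and the tables do not pair them with gene names.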
